A study of Drosophila melanogaster with 3 samples.

Results

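The genes that encode the proteasome were examined in a chromatin immunoprecipitation and sequencing (ChIP-seq) map of the Drosophila melanogaster protein CG5180. They were taken as all protein-coding genes whose symbol starts with Rpn, Rpt, Prosalpha or Prosbeta followed by a digit, which gave 48 of the 13945 protein-coding genes of the X chromosome, chromosome 4 and the arms of chromosomes 2 and 3. The chromatin came from whole embryos of mixed sex aged 0 to 16 h, of a fly line that stably expresses CG5180 with green fluorescent protein at its C-terminus, and it was precipitated with an antibody against GFP. The labels do not name the promoter that drives the fusion. The 3 biological replicates form a single group, so no comparison between conditions exists, and no library without the tag was analysed here. The peak lists used were those of each replicate and of the pooled replicates, with 30000 peaks each. A further list of 5400 peaks is named for IDR (irreproducible discovery rate), a method that looks for similar ranks across lists. The pooled list is labelled as peaks and background, for input to IDR. Its −log10 q-values, where a low value means weak evidence for a peak, go down to 0.204. Those of replicates 1, 2 and 3 go down to 0.171, 0.178 and 0.148, and those of the IDR list to 2.57. All 5400 IDR peaks have the summits of the 5400 strongest pooled peaks, so the IDR list is here the top of the pooled list and not a separate measurement. The signal value of a peak is the authors' own score and was compared only within a list, and rank 1 is the strongest peak.

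The proteasome degrades proteins tagged with ubiquitin. Its barrel-shaped core is built of alpha rings, which gate the entrance, and beta rings, which hold the protease sites. A regulatory particle caps the barrel: its Rpt subunits are ATPases that unfold substrates, and its Rpn subunits bind ubiquitin, remove it or form the scaffold. All cells need the proteasome, and cells raise many of its genes together when degradation falls short, in flies through the transcription factor Cnc. The 48 genes comprise 6 Rpt genes, 12 Rpn genes, 7 alpha genes, 7 beta genes and 16 paralogs whose symbol carries a T or an R after the digit, of which those with a T are named for expression in testis. The closest TSSs of subunit genes, those of Prosbeta4R1 and Prosbeta4R2, are 2348 bp apart.

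A summit of the IDR list lay within 250 bp of a transcription start site (TSS) of 1 of the 48 genes, Rpn8 (2.08%, Wilson 95% interval 0.369 to 10.9), while 12.0% of all protein-coding genes had one. Within 1000 bp the count was 3 of 48 (6.25%, 2.15 to 16.8), with Prosalpha4 and Prosalpha6 added, beside 18.1% of all genes. The pooled list, which by its label also holds background, gave 5 of 48 within 250 bp (10.4%, 4.53 to 22.2) beside 28.2%. Within 1000 bp it gave 10 of 48 (20.8%, 11.7 to 34.3) beside 41.2%. The pooled summits within 250 bp had a −log10 q-value of 3.88 at Rpn8 but only 0.205 to 0.939 at the other genes. Replicate 1, 2 or 3 was also set aside by keeping only the pooled peaks found in both others. The count within 250 bp was then 2 each time (4.17%), beside 22.0%, 21.0% and 21.5% of all genes. The proteasome share was below that of all genes in each case, and these counts are nested, since the IDR peaks are part of the pooled list. These shares are descriptions, since genes are not replicates of a condition. The intervals cover counting error only, and the number of reads behind each list is unknown.

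Each replicate list was also counted alone. Within 250 bp, replicate 1 had a summit at 3 of the 48 genes beside 27.4% of all genes. Replicate 2 had 3 beside 30.5%, and replicate 3 had 8 beside 32.8%. The mean was 4.67 ± 2.89 genes (SD, n = 3), and replicate 3 alone lay well above the others. Within 1000 bp the counts were 10, 11 and 15 genes, a mean of 12.0 ± 2.65, beside 42.5%, 44.9% and 48.1% of all genes. Among only the 5400 strongest peaks of each replicate the counts within 250 bp were 1, 1 and 2, a mean of 1.33 ± 0.577, beside 11.4%, 12.3% and 13.6% of all genes. In every replicate the share of the 48 genes, which include the 16 paralogs, was below the share of all genes. Of the 32 genes that are not paralogs, 9, 10 and 15 had a summit within 1000 bp in replicates 1, 2 and 3. These are 28.1%, 31.3% and 46.9%, the last close to the 48.1% of all genes. Within 250 bp the counts among the 32 were 3, 3 and 8 (9.38%, 9.38% and 25.0%).

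**Figure D1:**
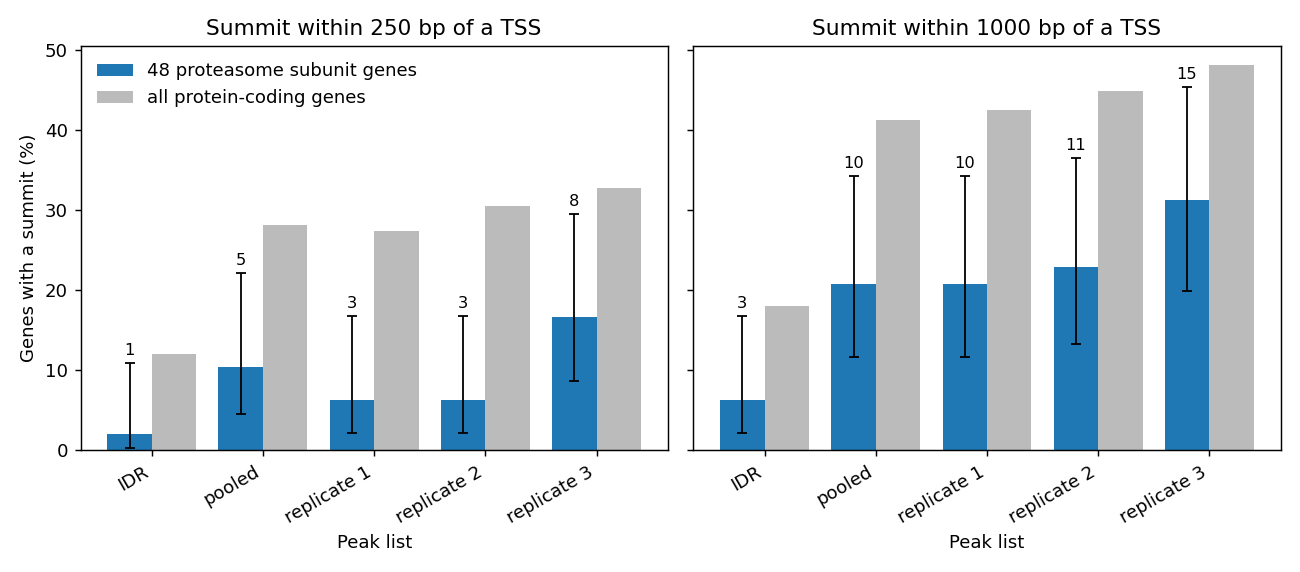
Share of genes with a peak summit within 250 bp (left) or 1000 bp (right) of a TSS, in percent, for the 48 proteasome subunit genes (blue, with Wilson 95% intervals and the number of genes above) and for all 13945 protein-coding genes (grey), in the 5 peak lists. The blue bar is lower than the grey bar in each list, from 2.08% against 12.0% in the IDR list within 250 bp to 16.7% against 32.8% in replicate 3 at the same distance.

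The few peaks were spread unevenly over the subunit classes. None of the 6 Rpt genes had a summit within 1000 bp in any of the 5 lists, and a count of 0 among 6 would still permit a share of 50%. Of the 12 Rpn genes 9 had a summit within 1000 bp in at least 1 list and 6 within 250 bp. Of the 7 alpha genes 4 had a summit within 1000 bp in some list and 1 within 250 bp, and of the 7 beta genes 2 did at either distance. Of the 16 paralogs 3 had a summit within 1000 bp and 1 within 250 bp. No list had a summit within 1000 bp for 25.0% of the Rpn genes, 42.9% of the alpha genes, 71.4% of the beta genes and 81.3% of the paralogs. The Rpn share with a summit within 1000 bp was 8.33% in the IDR list, beside 18.1% of all genes. It was 41.7% in the pooled list and in replicates 1 and 2, beside 41.2%, 42.5% and 44.9%. In replicate 3 it was 75.0%, and that of the alpha genes 57.1%, both above the 48.1% of all genes. Over all 48 genes, 38 had no summit within 250 bp in any list (79.2%), where 57.3% of all protein-coding genes had none, and 30 had none within 1000 bp (62.5%), beside 41.3%. The classes are too small for these differences to be more than a description, and none was tested.

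Rpn8, which encodes the lid subunit that pairs with the deubiquitinase Rpn11, had the strongest peak of the set. Its signal value was 610 in the pooled list (rank 1149) and the same in the IDR list, where 531 genes had a stronger summit within 250 bp of a TSS. The peak spans chr2R:24402730-24403193 on dm6. In replicate 1 the strongest Rpn8 summit within 250 bp had a signal value of 303 and rank 884, in replicate 2 it had 151 and rank 2004, and in replicate 3 it had 156 and rank 1164. All of these ranks are inside the strongest 5400 of the replicate's list, and the summits lay 92, 2 and 45 bp from the TSS.

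The Rpn8 peak lies near only 1 of the gene's 2 annotated TSSs. The outer TSS is at position 24400028 and the inner one, 2977 bp further downstream, at 24403005. The pooled summit is 43 bp upstream of the inner TSS and so lies in an intron of the longer Rpn8 transcript. Slik, which encodes a Ste20-like kinase, is transcribed away from there, and its TSS is 282 bp from the summit. The strongest replicate 1 summit is 233 bp from the Slik TSS, so in that list it lies within 250 bp of both genes. If only the outermost TSS of each gene was counted, no subunit gene had an IDR summit within 250 bp, and 9.57% of all genes did.

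Prosalpha4 and Prosalpha6, subunits of the alpha ring, had the next strongest peaks, both inside a divergently transcribed neighbour. The strongest pooled peak within 1000 bp of the Prosalpha4 TSS had a signal value of 359 (rank 2249, chrX:16275246-16275709). Its summit was 792 bp upstream, in an intron of kat80, which encodes the regulatory subunit of the microtubule-severing enzyme katanin. A further IDR peak, overlapping the first, had a signal value of 241 and its summit 591 bp upstream, in the 5' UTR of kat80 and 238 bp from a TSS of that gene. The strongest Prosalpha4 peak had signal values of 144, 132 and 102 in replicates 1, 2 and 3. Its ranks of 2277, 2416 and 2070 were close to each other.

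At Prosalpha6 the IDR peak had a signal value of 220 (rank 4238, chr2L:10220300-10220763). Its summit was 819 bp upstream of the Prosalpha6 TSS and in the 5' UTR of Npc1a, whose protein moves sterols out of endosomes, 420 bp from the Npc1a TSS. Replicate 2 had the peak at a signal value of 68.9 (rank 5777) and replicate 3 at 60.1 (rank 4197), while replicate 1 listed no summit within 1000 bp of the gene. Thus of the 3 subunit genes with an IDR summit within 1000 bp, only Rpn8 was itself the gene with the nearest TSS. Prosalpha5 had a weaker pooled peak between genes, 882 bp upstream of its TSS (signal value 119, rank 9181), and a summit there in every replicate list.

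The sequences under 3 summits, chosen because they lie outside long UTR stretches, show what these places look like. Each holds 101 bases of genome release 6 (RefSeq), centred on the pooled summit and read 5′ to 3′ along the proteasome gene. Capitals mark matches, on either strand, to any of 11 short motifs named later.
Prosalpha4, 792 bp upstream of the TSS, chrX:16275428-16275528, plus strand: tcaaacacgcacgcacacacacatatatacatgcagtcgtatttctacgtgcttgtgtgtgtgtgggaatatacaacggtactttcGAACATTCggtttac
Rpn11, 286 bp upstream of the TSS, chr2L:5060026-5060126, minus strand: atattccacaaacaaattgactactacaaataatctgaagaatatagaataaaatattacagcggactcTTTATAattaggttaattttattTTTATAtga
Rpn5, 80 bp upstream of the TSS, chr3R:5789363-5789463, plus strand: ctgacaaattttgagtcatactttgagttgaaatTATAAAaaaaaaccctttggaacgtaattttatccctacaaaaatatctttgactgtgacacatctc
The Prosalpha4 window holds alternating CA and TG runs and 1 match to the heat shock element GAANNTTC. The Rpn11 and Rpn5 windows are rich in A and T, and their capitals are matches to the TATA box sequence TATAAA.

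Among the Rpn genes other than Rpn8, peaks were weaker than those of the IDR list. Rpn5, a scaffold subunit of the lid, was the only gene besides Rpn8 with a summit within 250 bp in all 3 replicate lists. Its pooled peak at that distance had a signal value of 92.3 (rank 12687). The replicates gave 35.7, 29.0 and 28.2, with ranks of 15497, 18390 and 12119. Their −log10 q-values were low, at 0.571, 0.509 and 0.868, and that of the pooled peak was 0.939. The recurrence at Rpn5 thus rests on weak calls. The Rpn5 summit lies 80 bp from the Rpn5 TSS but 29 bp from the TSS of Hat1, the gene of a histone acetyltransferase transcribed in the opposite direction. A stronger pooled peak (141, rank 7426) had its summit 296 bp upstream, in an intron of Hat1.

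Rpn11, the deubiquitinase of the lid, lay just outside the 250 bp limit, with a pooled summit 286 bp upstream of its TSS (signal value 146, rank 7110). Replicate 1 placed it 297 bp away with a signal value of 40.6, replicate 2 placed it 298 bp away with 49.7, and replicate 3 placed it 191 bp away with 50.4. The replicate 3 peak thus counted within 250 bp, and its rank of 5390 was just inside that replicate's strongest 5400. No other gene has a TSS nearer to the pooled summit, and the nearest one, of qtc, is 739 bp away. Rpn9, a lid subunit, was the reverse case on the inside of the limit, with a pooled summit 128 bp downstream of its TSS (72.2, rank 17217). Only replicate 2 listed a summit within 250 bp (32.5, rank 15892).

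Rpn13, a ubiquitin receptor, had the strongest peak near a subunit gene that was not in the IDR list, with a signal value of 175 (rank 5687). The summit lay 555 bp upstream, in an intron of CtsL1, the gene of a lysosomal cathepsin. Replicates gave 101, 51.3 and 28.0 for the strongest summit within 1000 bp, with ranks of 3698, 8696 and 12258. These summits lay 560, 419 and 348 bp upstream, so they need not be the same peak. The summits nearest to the pooled one were 622 bp upstream in replicate 2 (47.0, rank 9777) and 553 bp in replicate 3 (20.8, rank 18545). Only replicate 1 had a summit within 1000 bp of Rpn13 among its strongest 5400.

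Several Rpn genes had a summit in replicate 3 alone. Within 250 bp these were Rpn12, a lid subunit (44.8, rank 6319, summit 81 bp upstream), Rpn3, another lid subunit (38.7, rank 7768, 68 bp) and Rpn11, described above. Rpn2, a large scaffold of the base (41.1, rank 7128), and the ubiquitin receptor gene Rpn10 (21.8, rank 17433) had theirs 283 and 488 bp upstream. The Rpn2 summit lies 25 bp from the TSS of Slbp, whose protein binds histone mRNA. Rpn12, Rpn3, Rpn2 and Rpn10 had no summit within 1000 bp in replicates 1 and 2, and none had a pooled summit within 1000 bp. Rpn1, Rpn6 and Rpn7 had no summit within 1000 bp in any list.

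Genes of the beta ring had only weak peaks, with −log10 q-values of at most 0.62 in any list. The pooled summit near Prosbeta1, the caspase-like protease subunit, was 125 bp upstream of its TSS with a signal value of 49.4 (rank 27345), and 4 bp from the TSS of Rrp42, an exosome subunit gene. It recurred within 250 bp in replicate 3 only (19.3, rank 20558). A further weak pooled summit (57.0, rank 23057) lay in the coding sequence of Prosbeta1, 749 bp downstream. Prosbeta5, the chymotrypsin-like subunit, had no pooled summit within 1000 bp, although replicate 1 (26.1, rank 24092) and replicate 3 (24.0, rank 15197) listed one within 250 bp. Those summits lie 9 and 74 bp from a TSS of the divergent gene dgo. Prosbeta2, the trypsin-like subunit, and Prosbeta3, Prosbeta4, Prosbeta6 and Prosbeta7 had none. In the alpha ring Prosalpha3 had a summit 7 bp from its TSS in replicate 3 only (17.2, rank 23919, −log10 q-value 0.264). Prosalpha1, Prosalpha2 and Prosalpha7 had none within 1000 bp in any list.

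Of the paralogs, Rpt6R had a pooled summit 234 bp upstream of its TSS at a signal value of 45.7. Its rank of 29902 of 30000 makes it nearly the weakest peak of that list, and no replicate list had it. Prosbeta2R2 had a summit within 1000 bp in replicate 2 only (19.8, rank 29249), and Prosbeta5R2 in replicate 1 only (25.0, rank 25467). The other 13 paralogs had none in any list.

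**Figure D2:**
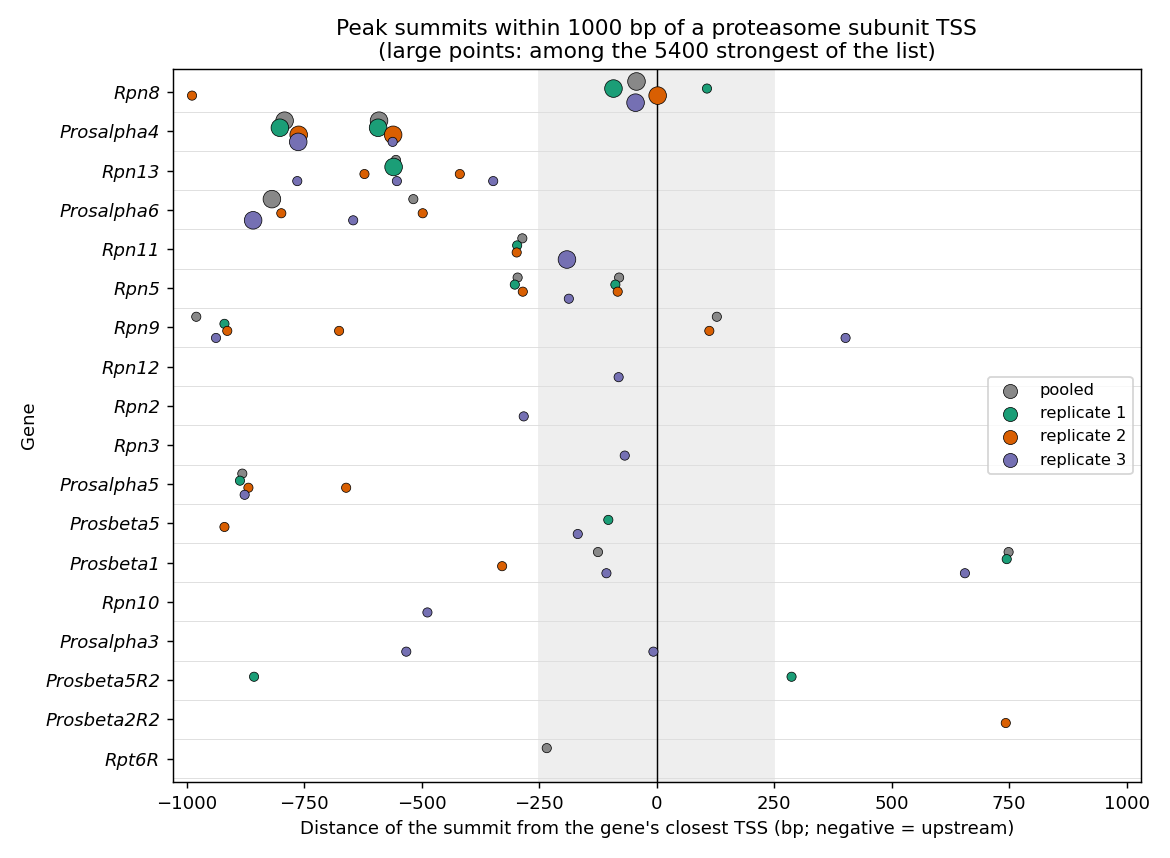
Positions of peak summits within 1000 bp of a TSS for the 18 proteasome subunit genes that have one in the pooled list or in a replicate list. The x axis is the distance in bp from the gene's closest TSS, negative upstream, the shaded band is 250 bp to either side, colours are the lists and large points are among the 5400 strongest peaks of their list. Large points inside the band occur at Rpn8 in the pooled list and in each replicate and at Rpn11 in replicate 3.

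Recurrence among replicates depended on the distance counted. Of the 9 subunit genes with a summit within 250 bp in any replicate list, 2 had it in all 3 lists (22.2%), 1 in 2 lists and 6 in 1 list (66.7%), and 5 of those 6 were in replicate 3. Over all protein-coding genes with such a summit, 46.2% had it in all 3 lists and 31.9% in 1. Within 1000 bp, 9 of 17 subunit genes had a summit in all 3 lists (52.9%), beside 56.5% of all genes with one. Among the 5400 strongest peaks of each replicate, 1 of 2 subunit genes with a summit within 250 bp had it in all 3 (50%), beside 51.1% of all genes with one. The median pooled signal value of the 5 subunit genes with a summit within 250 bp was 72.2, where the 3935 genes with one had a median of 152. Within 1000 bp it was 144 for 10 subunit genes and 156 for all 5750 genes with one.

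**Figure D3:**
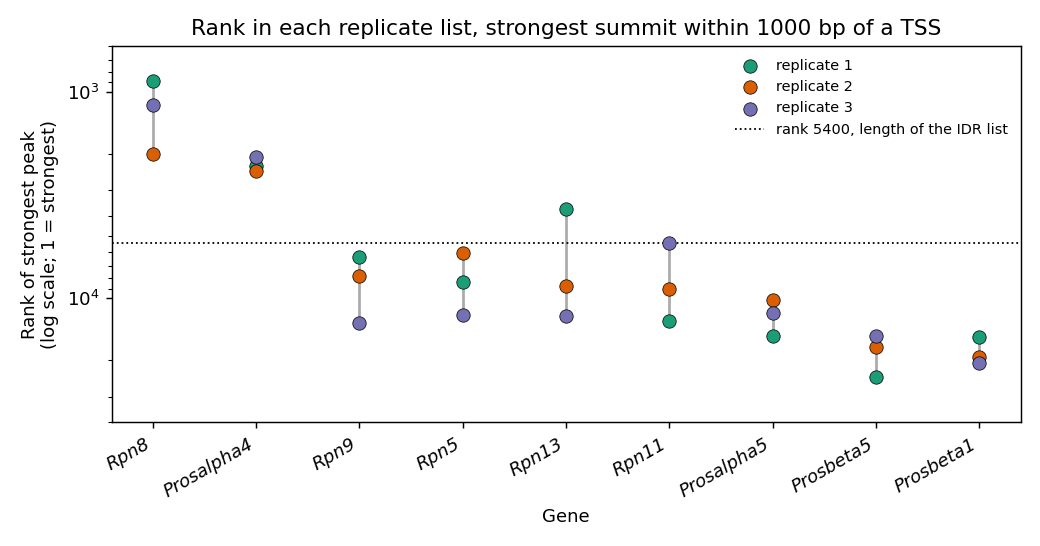
Rank of the strongest peak within 1000 bp of a TSS in each replicate list, for the 9 subunit genes with such a peak in all 3 lists. The y axis is logarithmic with the strongest peaks at the top, points are the replicates and the dotted line is rank 5400. Rpn8 (884 to 2004) and Prosalpha4 (2070 to 2416) are above the line in all 3 replicates, while Rpn13 and Rpn11 cross it in 1 replicate and the other 5 genes are below it.

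The peaks near subunit genes were often nearer to another gene. In the pooled list 15 peaks lay within 1000 bp of a subunit TSS, counting each pair of gene and peak, and for 6 of them (40.0%) the subunit gene held the nearest TSS. Over all protein-coding genes this share was 83.2% of 11631 pairs. For Prosalpha4, Prosalpha6, Rpn5 and Rpn13 every pooled peak was nearer to the neighbour. Of the 15 peaks 13 were upstream of the subunit TSS (86.7%), against 61.4% for all genes. The neighbours are close: 24 of the 48 genes (50%) had a divergently transcribed gene as the nearest neighbour with its TSS within 1000 bp, and so did 33.2% of all protein-coding genes. Without the paralogs it was 21 of 32 (65.6%), and among the paralogs 3 of 16 (18.8%). What part this arrangement has in the peak positions was not tested.

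Away from the TSSs, the nearest IDR summit was at a median of 12971 bp from a subunit gene, from 43 bp at Rpn8 to 157638 bp at Rpt3, where all protein-coding genes had a median of 9707 bp. For the 32 genes that are not paralogs the median was 8677.5 bp, and for the 16 paralogs 23052 bp, with 14 of them (87.5%) more than 10000 bp from any IDR summit, beside 46.9% of the 32 and 49.2% of all genes. The nearest pooled summit was at a median of 6791.5 bp, beside 2070 bp over all genes. Rpt2, Rpt5 and Rpt6, though without a peak within 1000 bp, had pooled summits 2885, 5274 and 3423 bp away, and in each case this was also an IDR summit. Subunit genes are short, with a median length of 1381.5 bp, where all protein-coding genes have 2166 bp and genes with an IDR summit within 250 bp have 5211 bp. A single annotated TSS was found for 36 of the 48 (75.0%), for 73.5% of all genes and for 45.1% of the genes with an IDR summit within 250 bp. The part of gene length and TSS number in the counts was not tested.

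**Figure D4:**
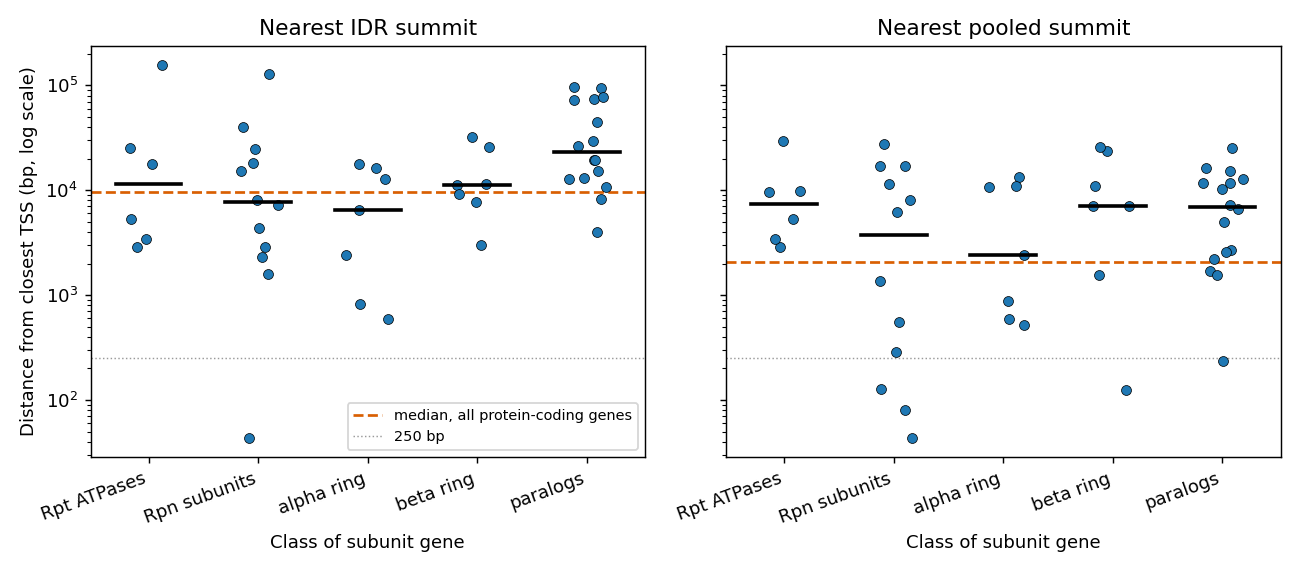
Distance in bp, on a logarithmic axis, from the closest TSS of each of the 48 subunit genes to the nearest summit of the IDR list (left) and of the pooled list (right), by class. Points are genes, black bars are class medians, the dashed line is the median of all protein-coding genes (9707 bp for IDR, 2070 bp for pooled) and the dotted line is 250 bp. Rpn8 is the only point below the dotted line on the left, and the class medians on the right are all above the dashed line.

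The promoters of the subunit genes held sequence elements known from housekeeping genes. The windows searched ran from 250 bases before to 50 after the outermost TSS of each gene, on both strands. The DREF sequence TATCGATA, bound by a factor that serves genes of growth and DNA replication, was found at 12 of the 32 genes that are not paralogs (37.5%) and at 0 of the 16 paralogs, a count that would still permit 18.8%. It was found at 9.36% of all protein-coding promoters and at 9.97% of those of the 1675 genes with an IDR summit within 250 bp of any TSS. Only 1335 genes had such a summit at the outermost TSS, so not all of these windows hold one. The 12 genes are Prosalpha3, Prosalpha5, Prosalpha6, Prosbeta1, Prosbeta2, Prosbeta6, Rpn3, Rpn7, Rpn9, Rpn12, Rpn13 and Rpt5. The BEAF-32 core CGATA, which is contained in TATCGATA, was found at 27 of 32 (84.4%) and at 8 of 16 paralogs (50%), beside 47.4% of all promoters. A match is a description of the letters and not a binding site.

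The DREF matches of 7 of these genes are shown in 30 bases each, read along the gene, to let the surroundings of the shared element be compared. Capitals mark TATCGATA.
Prosalpha6, chr2L:10221324-10221353, plus strand: cccgaatccctTATCGATAcccgatacaca
Rpn3, chr2L:19051582-19051611, plus strand: tgttatcggagTATCGATAtcgaaaaggct
Prosbeta2, chr3L:14999930-14999959, plus strand: ccatgaatataTATCGATAcaatatcgatt
Prosbeta6, chr3L:16610444-16610473, minus strand: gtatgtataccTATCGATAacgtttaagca
Rpn12, chr3L:16582801-16582830, plus strand: ttgttaaaataTATCGATAttaaagcacaa
Rpn7, chr3R:22462033-22462062, minus strand: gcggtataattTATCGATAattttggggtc
Rpt5, chr3R:23752819-23752848, plus strand: atcgctgtcacTATCGATAagcgccggcga
The element lay close to the TSS at Prosbeta2 (first base at -10), Prosalpha6 (-16) and Rpn7 (+4), and farther away at Rpn3 (-197) and Rpn12 (-216). Of all 12 genes with the element, 5 had a pooled summit within 1000 bp (41.7%), beside the 41.2% of all protein-coding genes. They were Prosalpha5, Prosalpha6, Prosbeta1, Rpn9 and Rpn13.

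Motif 1, another element of housekeeping promoters, was searched by its core GGTCACAC and found at 5 of the 32 genes (15.6%) and at 0 of the 16 paralogs, beside 7.70% of all promoters. The 5 genes are shown with the core in capitals, together with any match to the antioxidant response element TGACNNNGC, the sequence bound by Cnc with its small Maf partner.
Prosalpha2, chr3R:12431327-12431356, plus strand: attcagcattcGGTCACACtgccgcccaat
Prosalpha4, chrX:16276292-16276321, plus strand: acccatgctgcGGTCACACtgcggcatttc
Prosbeta3, chr3R:9006424-9006453, minus strand: TGACGCGGCCTGGTCACACtgaaagctaat
Rpn1, chr3L:19915039-19915068, plus strand: gttcgccGCGCGGTCACACtgcaaaaagcg
Rpn7, chr3R:22462018-22462047, minus strand: gataattttggGGTCACACtggtagtacat
At Rpn1, and for 1 of the 2 matches at Prosbeta3, the antioxidant response element lies on the opposite strand and shares bases with the Motif 1 core. The element TGACNNNGC was found at 5 of 32 genes (15.6%), namely Prosalpha2, Prosbeta3, Rpn1, Rpn7 and Rpt6, and at 1 of 16 paralogs, Prosbeta4R2, beside 8.63% of all promoters. None of these 6 genes had a summit within 1000 bp in any list. Such a summit was lacking at 62.5% of the subunit genes and 41.3% of all genes, and a count of 0 among 6 would still permit 50%. The inner promoter of Rpn8, which has the IDR peak, also held the Motif 1 core and the Motif 5 E-box core CAGCTG, and the window at its outer TSS held neither.

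The promoter of Rpn12 is given as an example with a DREF match and no pooled peak, from 250 bases before to 30 after the TSS (chr3L:16582778-16583057, plus strand). Capitals mark TATCGATA, further BEAF-32 cores on either strand, and a Pho match GCCAT that runs into a match to Motif 7 (CANCNCTA).
Rpn12: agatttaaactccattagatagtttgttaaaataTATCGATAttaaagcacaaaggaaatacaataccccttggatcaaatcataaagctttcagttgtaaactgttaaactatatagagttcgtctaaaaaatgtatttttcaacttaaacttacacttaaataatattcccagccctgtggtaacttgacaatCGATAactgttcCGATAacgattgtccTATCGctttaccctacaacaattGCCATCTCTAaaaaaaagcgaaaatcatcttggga

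Of the other motifs, the GAGA factor sequence GAGAGAG was found at 0 of the 32 genes, a count that would still permit 9.38%, and at 2 of 16 paralogs, Prosbeta2R2 and Rpt4R. All promoters had it at 5.87%, and promoters of genes with an IDR summit near any TSS at 10.1%. The Motif 5 E-box core CAGCTG was found at 1 of 32 (3.13%) at the outermost TSS, Rpt3. It was found at 17.7% of all promoters and 21.9% of those of genes with an IDR summit. Motif 7 was found at 9 of 32 (28.1%) beside 15.6% and 19.0%. The Pho sequence GCCAT was found at 10 of 32 (31.3%) beside 41.2% and 39.0%, and the TATA box TATAAA at 13 of 32 (40.6%) beside 45.8% and 40.1%. The Zelda sequence CAGGTAG and the heat shock element GAANNTTC were each found at 1 of 32, Rpt6 and Rpn6, beside 1.64% and 9.37% of all promoters. The median GC content of the promoter was 33.5% for the 32 genes and 32.7% for the paralogs, beside 38.0% over all genes and 39.7% over genes with an IDR summit, and its part in the motif shares was not tested.

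**Figure D5:**
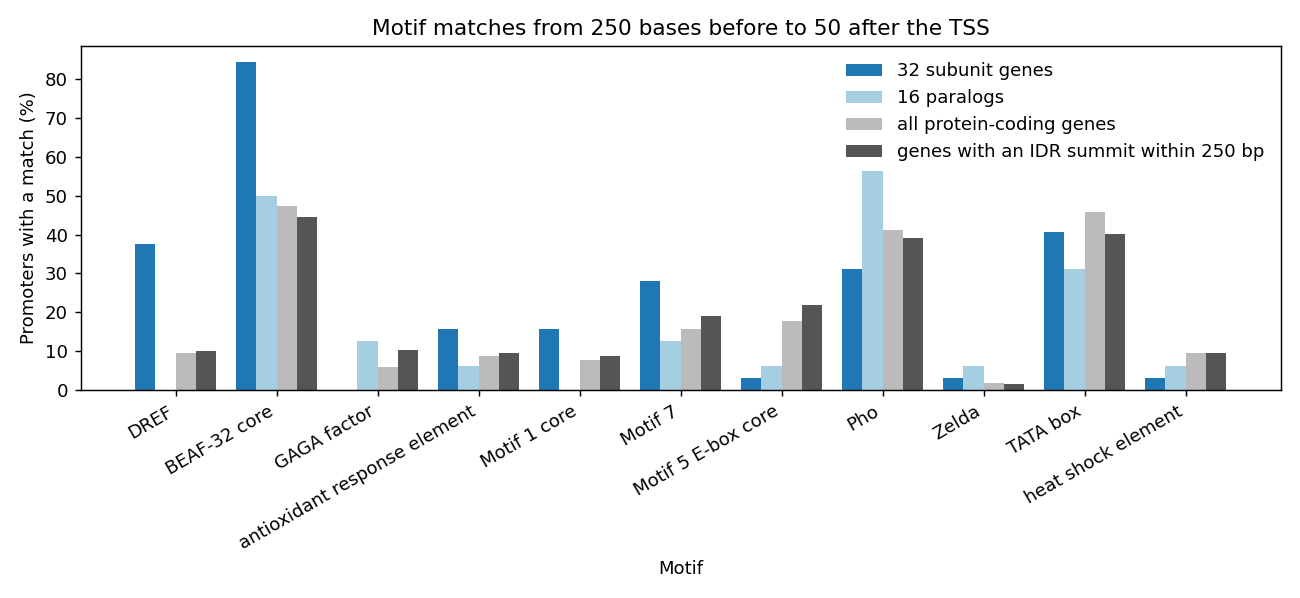
Share of promoters, in percent, with at least 1 match to each of 11 motifs, in windows at the outermost TSS. The sets are the 32 subunit genes that are not paralogs, the 16 paralogs, all 13945 protein-coding genes and the 1675 genes with an IDR summit within 250 bp of any TSS. DREF stands at 37.5%, 0%, 9.36% and 9.97%, and the BEAF-32 core at 84.4% in the subunit genes.

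Some other genes of the proteasome pathway had an IDR peak. Of 24 symbols for proteasome regulators, assembly factors, ubiquitin genes and carriers, and Cnc with its partners, 23 were found, and 6 of them had an IDR summit within 250 bp (26.1%, Wilson 95% interval 12.5 to 46.5), beside the 12.0% of all genes. Within 1000 bp 8 of 23 had one (34.8%), beside 18.1%. The difference from the 48 subunit genes was not tested. The list mixes genes of different size: cnc has 10 annotated TSSs.

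The cnc gene itself, which encodes the regulator of proteasome genes, had an IDR summit 144 bp from a TSS with a signal value of 319 (rank 2633). Which of its transcripts starts at that TSS was not examined. The replicates gave 134, 109 and 76.6 within 250 bp, with ranks of 2526, 3162 and 3022, so the cnc peak was among the strongest 5400 in each. Keap1, whose product holds Cnc in check, had 317 in the IDR list within 250 bp (rank 2661), and 162, 135 and 36.9 in the replicates, the last at rank 8275. A stronger summit within 1000 bp of Keap1 had a signal value of 962 (rank 649).

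REG, an activator that caps the core particle, had 244 in the IDR list (rank 3685, summit 156 bp from a TSS) and ranks of 3437, 4025 and 4042 in the replicates. Pomp, a chaperone of core assembly, had 331 (rank 2504, 243 bp), and replicate 3 listed it 217 bp away (86.4, rank 2585). Replicates 1 and 2 had a summit just outside the limit, 254 and 313 bp away, with signal values of 142 and 105 and ranks of 2335 and 3331. The ubiquitin gene Ubi-p63E had 184 (rank 5353) and replicate ranks of 4358, 4518 and 6946, and RpS27A, a fusion of ubiquitin and a ribosomal protein, had 299.8 (rank 2890) and no summit within 250 bp in replicate 1. PI31, a proteasome-binding regulator, and Ubqn, a carrier of ubiquitinated proteins, had IDR summits between 250 and 1000 bp from a TSS, with signal values of 270.0 and 223. Of these 8 genes cnc and REG are the ones whose peak within 250 bp was among the 5400 strongest of all 3 replicates.

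Ribosomal protein genes, a large set of housekeeping genes, are given for scale. Of 85 genes for cytosolic ribosomal proteins, 56 had an IDR summit within 250 bp (65.9%, 55.3 to 75.1), and of 73 genes for mitochondrial ribosomal proteins 7 did (9.59%, 4.72 to 18.5). RpS27A and RpL40 are counted both among the cytosolic ribosomal protein genes and in the pathway list. The differences from the proteasome genes were not tested.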

How the data were processed

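ChIP-seq peaks from 3 replicates were called by the authors on dm6. Per the README notes that came with the deposited libraries, each replicate's peaks came from its own alignments and 1 further file, the pooled list used the 3 replicates together with that same file, and the IDR list was made from these 4. For aligner, caller and IDR threshold, "not given in the sources used here" applies. The deposited signal value (a score without a fixed range, not scaled between lists) and the −log10 q-value of each peak were used unchanged. Lists on dm3 were not used. Read depth is unknown.

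Chromosome sequences of RefSeq release 6 and gene models of Ensembl release 115 (BDGP6) were used. No peak reached beyond a chromosome end. Every transcript start of a protein-coding gene counted as a TSS, and distances run from the summit. The strongest peak in the window gave a gene's value. Positions are 1-based. A count of 0 was given the limit that 3 counts allow. Peak assignment was tested on simulated data. Counts and values are descriptions without tests, since the design has 1 group. Of 24 pathway symbols, 2 were matched through RefSeq synonyms. Genes named are all those with a summit within 1000 bp, and the rest by class.

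The members, gene lists, motifs and classes were chosen with earlier results of these data known. Python 3.11.15, pandas 2.3.3 and scipy 1.17.1 were used.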

Additional observations from a re-analysis of the deposited data

How the results depend on the processing

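In all 44 counts, main and alternative, the share of subunit genes stayed below that of all protein-coding genes under the same setting. Below, the share of all protein-coding genes under the same setting stands in brackets as a percentage. The IDR count within 250 bp, 1 (12.0%), became 0 with only each gene's outermost TSS (9.57%). The IDR count within 1000 bp, 3 (18.1%), became 1 when only the gene with the nearest TSS was counted (14.7%). The pooled count within 250 bp (5) became 2 in the stronger 50% of the list, 2 with the nearest TSS only and 2 within 100 bp, while a window of 500 bp gave 6. The pooled count within 1000 bp, 10 (41.2%), became 6 with the nearest TSS only (35.5%). The count of genes with a summit within 250 bp in all replicates was 2 (19.5%). It became 1 with the outermost TSS (15.6%), 1 in the stronger 50% of each list (15.0%) and 1 with the nearest TSS (17.1%). Within 100 bp it was 1 (9.07%), and within 500 bp 3 (26.3%). Setting a replicate aside gave 1 to 1 for IDR within 250 bp (11.7% to 11.8%) and 2 to 3 within 1000 bp (17.7% to 17.8%). For pooled it gave 2 to 2 within 250 bp (21.0% to 22.0%) and 7 to 8 within 1000 bp (30.9% to 32.1%). For all replicates it gave 2 to 3 (21.9% to 23.8%). For the IDR and pooled lists this kept only peaks found in both other replicates. Those peaks and their ranks still came from all 3 replicates, so the lists were not made anew without the replicate. No paired analysis was possible because there is 1 group. Read depth is unknown, so the absence of a peak does not show the absence of binding.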
